A study of Mus musculus with 57 samples.

Results

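The UDP-glucuronosyltransferases (Ugt genes) and the sulfotransferases (Sult genes) were followed in mouse liver 24 h after 1 of 7 liver toxicants. Members were chosen by name alone, as every gene whose symbol begins with Ugt1, Ugt2 or Ugt3 followed by a or b, or with Sult1 to Sult5 followed by a letter from a to e. Of 46 such symbols 6 were pseudogenes and were left out, so that 40 members remained of 54307 genes in the table, 21 Ugt and 19 Sult genes. A member was counted as expressed when its mean over all 57 livers was at least 1 CPM (counts scaled to a common library total, with TMM factors from edgeR). Expressed in this sense were 23 members, namely 7 of 9 Ugt1a genes, 8 of 10 Ugt2 genes, both Ugt3 genes and 6 of 19 Sult genes. The lowest expressed member was Ugt1a10 at 1.002 CPM, and the next members under the limit were Sult2a7 at 0.954 and Sult1c2 at 0.827 CPM. With plain library totals in place of TMM, 22 members reached the limit.

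Both enzyme families carry out conjugation, the step of drug and steroid metabolism that makes a lipophilic compound water soluble so that it can leave the hepatocyte in bile or blood. Ugt enzymes sit in the endoplasmic reticulum and transfer glucuronic acid from UDP-glucuronic acid to bilirubin, steroids, bile acids, phenols and drugs, while Sult enzymes of the cytosol transfer sulfate from 3′-phosphoadenosine-5′-phosphosulfate (PAPS) to phenols, catecholamines, estrogens and hydroxysteroids. The Ugt1a genes share their last exons and differ in a first exon of their own, whereas the Ugt2b genes are separate genes in a cluster. Acetaminophen, 1 of the 7 toxicants, is itself cleared in part by glucuronidation and sulfation.

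Livers came from male wild-type C57BL/6JJcl mice that were 6 weeks old before 1 week of acclimatisation, fasted 12 h, given a single dose and killed 24 h afterwards. By gavage, alpha-naphthyl isothiocyanate (ANIT, a bile duct toxicant, 4 mice), acetaminophen (APAP, 6 mice), 4,4'-methylene dianiline (MDA, 7 mice) and thioacetamide (TAA, 5 mice) were set against 13 mice given 0.5% methylcellulose. By intraperitoneal (i.p.) injection, carbon tetrachloride (CCl4, 7 mice) and galactosamine (GAL, 4 mice) were set against 2 mice given 0.9% saline, and by intravenous (i.v.) injection the T cell mitogen concanavalin A (ConA, 7 mice) was set against 2 mice given 0.9% saline. Each compound was also set against all 17 vehicle mice together. The labels state 10 µL/kg as the dose of every group and give no amount of compound. They also list corn oil as a vehicle, and since no corn oil control was analysed here, compound and vehicle cannot be told apart for a compound given in it. The series was made to test and tune the estimation of cell type shares from whole-liver expression.

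Estimated counts summed to 13826343 to 35075809 per liver, with a median of 21532116. A gene's smallest value above 0 fell with transcript length (log-log slope -0.96 across 6039 genes with a single transcript), so that CPM compares genes per length, and no interval from read counts was computed. Differences are log2 fold changes with a standard error (SE), and a gene is called when its Benjamini-Hochberg adjusted p over all genes tested by edgeR's quasi-likelihood test is under 0.05. The mice are separate animals of each group, so that a p-value measures the spread between these mice. In whole liver, fewer cells of a type and less RNA per cell cannot be told apart. The 7 hepatocyte markers summed to 50636 to 119393 CPM in the gavage vehicle mice, and none was at 0 in any group.

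To show the stretch of DNA where transcription of the members described most fully begins, the 250 bases before the annotated start are printed for 5 of them from RefSeq, build GRCm38.p6, 5′ to 3′ on the strand of the gene. Capitals mark any match on either strand to 1 of 4 short motifs that were searched. These were GTTAAT, the core of the HNF1 motif, GCGTG, the core bound by the aryl hydrocarbon receptor, TGACNNNGC, the core of the antioxidant element, and AGGTCA, the core bound by nuclear receptors. The promoters lie at chr5:87591612-87591861 on the minus strand for Sult1e1, chr7:14438552-14438801 minus for Sult2a8, chr1:88211709-88211958 plus for Ugt1a1, chr5:87337196-87337445 minus for Ugt2a3 and chr5:87000610-87000859 plus for Ugt2b35.
Sult1e1: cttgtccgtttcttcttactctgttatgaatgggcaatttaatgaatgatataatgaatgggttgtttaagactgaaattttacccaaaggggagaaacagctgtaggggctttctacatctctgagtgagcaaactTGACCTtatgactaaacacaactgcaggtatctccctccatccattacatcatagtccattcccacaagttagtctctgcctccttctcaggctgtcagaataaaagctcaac
Sult2a8: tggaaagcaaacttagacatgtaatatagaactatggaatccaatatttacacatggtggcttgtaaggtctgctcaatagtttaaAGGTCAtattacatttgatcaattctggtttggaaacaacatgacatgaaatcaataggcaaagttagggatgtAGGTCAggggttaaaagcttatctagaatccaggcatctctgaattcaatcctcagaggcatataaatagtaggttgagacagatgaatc
Ugt1a1: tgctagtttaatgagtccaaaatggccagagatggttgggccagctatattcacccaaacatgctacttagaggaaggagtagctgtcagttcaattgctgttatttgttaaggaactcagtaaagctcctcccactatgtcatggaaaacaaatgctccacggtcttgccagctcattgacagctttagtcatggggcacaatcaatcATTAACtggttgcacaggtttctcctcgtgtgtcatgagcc
Ugt2a3: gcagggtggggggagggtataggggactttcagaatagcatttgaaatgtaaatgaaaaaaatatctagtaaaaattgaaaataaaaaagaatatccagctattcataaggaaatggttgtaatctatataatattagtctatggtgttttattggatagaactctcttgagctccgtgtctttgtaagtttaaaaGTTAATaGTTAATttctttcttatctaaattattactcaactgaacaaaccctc
Ugt2b35: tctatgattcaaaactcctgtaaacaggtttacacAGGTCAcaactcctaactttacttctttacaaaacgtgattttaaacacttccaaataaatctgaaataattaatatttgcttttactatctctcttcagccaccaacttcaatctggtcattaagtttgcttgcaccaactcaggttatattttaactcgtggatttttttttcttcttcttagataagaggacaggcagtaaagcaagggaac

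The Sult1e1 and Ugt2b35 windows each held 1 match to AGGTCA (written TGACCT where it lies on the other strand), and the Sult2a8 window held 2. A second start listed for Sult2a8, at chr7:14446588-14446837 on the minus strand, held none of the 4 motifs. The Ugt1a1 window held 1 match to GTTAAT (written ATTAAC on the other strand) and the Ugt2a3 window held 2. A RefSeq promoter was found for 34 of the 40 members and for 21 of the 23 expressed ones, all but Ugt1a6b and Ugt3a2. Every listed start was counted, which gave 23 windows for the 21 genes. GTTAAT occurred in 8 of these 23 windows and in 6.43% of all 32851 promoters of the same length, AGGTCA in 10 of 23 and in 14.02%, GCGTG in 3 of 23 and in 28.2%, and TGACNNNGC in 0 of 23 and in 10.2%. Ugt2b5, Ugt2b36, Ugt2b37 and Ugt2b38 hold their AGGTCA match within a nearly identical stretch of letters. The windows of such related genes are not separate occurrences, so that these counts do not show an excess over all promoters. A match describes letters in this window and neither shows nor excludes binding.

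In the 13 gavage vehicle mice the Ugt2 genes, which conjugate steroids, bile acids and drugs, and Ugt1a1, the bilirubin enzyme, led the Ugt genes, while Sult1a1, a phenol sulfotransferase, and Sult2a8, of the hydroxysteroid group, led the Sult genes. The median level per length was 307 CPM for Ugt2b36, 303 for Ugt2b5, 253 for Ugt1a1, 238 for Sult1a1 and 215 for Ugt2b1. The ranges over mice of these 5 overlapped. Sult2a8 followed at 165 CPM, Ugt3a2 at 149 and Ugt1a6a at 97.2. Ugt2a3, Ugt2b34, Ugt1a6b, Ugt1a9, Ugt2b35 and Ugt3a1 lay between 84.8 and 36.0 CPM, and Sult1d1, Ugt1a5, Sult5a1, Ugt1a7c and Sult1b1 between 19.5 and 11.5 CPM. Ugt2b38 at 3.29, Ugt1a10 at 1.11, Ugt2b37 at 0.761 and Sult1e1 at 0.269 CPM were the lowest of the 23.

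Spread between the 13 gavage vehicle mice differed by member. The ratio of the highest to the lowest mouse was 1.40 for Ugt1a6b, 1.48 for Ugt1a1 and 1.70 for Sult1a1, and it was 3.94 for Sult2a8, 6.18 for Sult1d1, 7.64 for Sult5a1 and 11.5 for Ugt2b37. Sult1e1 was at 0 in 1 of the 13. Of the 17 members under 1 CPM, 5 were at 0 in every liver (Ugt2a2, Sult1c1, Sult2a3, Sult2a4 and Sult2a6), and Ugt2a1 was above 0 in 1 liver. The classical hydroxysteroid sulfotransferase Sult2a1 averaged 0.0450 CPM, Sult3a1 0.0816 CPM and the brain form Sult4a1 0.0413 CPM, and edgeR tested none of these 3. By sequence, 53.0% to 84.2% of the 31-base words in the Ugt1a transcripts also occur in another member, and 55.8% of those of Ugt2b5, 52.9% of Ugt2b38 and 34.4% of Ugt2b37. The split of reads among these genes is therefore uncertain, whereas Sult1a1, Sult1b1, Sult1d1, Sult1e1, Sult2a8 and Sult5a1 share no such word with a member.

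Most called members fell, and how many did so differed between compounds. With APAP, TAA, CCl4, GAL and ConA the falls outnumbered the rises by far, whereas with ANIT and MDA several highly expressed members rose. With APAP, 21 of 25 tested members were called, 2 higher and 19 lower, beside 31.8% of all genes tested (17.3% higher, 14.6% lower), and the median log2 fold change was -1.29 over these members and 0.07 over all genes. After GAL, 20 of 25 tested members were called, 2 higher and 18 lower, beside 28.5% of all genes tested (12.8% higher, 15.7% lower), and the median log2 fold change was -1.97 over these members and 0.08 over all genes. With TAA, 19 of 25 tested members were called, 3 higher and 16 lower, beside 50.5% of all genes tested (26.4% higher, 24.0% lower), and the median log2 fold change was -0.84 over these members and 0.03 over all genes. After CCl4, 18 of 25 tested members were called, 2 higher and 16 lower, beside 33.5% of all genes tested (18.0% higher, 15.6% lower), and the median log2 fold change was -1.41 over these members and 0.10 over all genes. For ConA, 13 of 25 tested members were called, 1 higher and 12 lower, beside 34.2% of all genes tested (16.8% higher, 17.3% lower), and the median log2 fold change was -1.32 over these members and 0.03 over all genes. Under MDA, 15 of 25 tested members were called, 7 higher and 8 lower, beside 33.8% of all genes tested (17.4% higher, 16.4% lower), and the median log2 fold change was -0.11 over these members and 0.03 over all genes. Under ANIT, 11 of 25 tested members were called, 4 higher and 7 lower, beside 28.2% of all genes tested (1965 of 14072 higher, 14.2% lower), and the median log2 fold change was -0.17 over these members and -0.01 over all genes. Members too low for the filter were not tested, so that these counts describe the members tested and not the 40. The filter asked for 0.457 to 0.549 CPM, depending on the comparison, in as many mice as the smaller group holds. Sult1e1 in its 5 comparisons with the route vehicle, Ugt2b37 with CCl4, GAL and ConA, and Ugt1a2 with GAL met this in the treated mice alone, so that the filter favoured a rise there. Sult1c2, Sult2a7 and Ugt1a10 met it in the vehicle mice alone in several comparisons, which favoured a fall, and Ugt2b37 did with APAP and MDA. Among the members that met it in both groups, 3 higher and 6 lower of 23 with ANIT, 0 higher and 16 lower of 20 with APAP, 6 higher and 7 lower of 22 with MDA, 2 higher and 13 lower of 21 with TAA, 1 higher and 16 lower of 23 with CCl4, 1 higher and 17 lower of 21 with GAL and 0 higher and 10 lower of 20 with ConA were called.

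Against all 17 vehicle mice, 10 of 26 were called with ANIT (3 higher, 7 lower, beside 28.0% of all genes), 22 of 25 were called with APAP (2 higher, 20 lower, beside 33.4% of all genes), 14 of 26 were called with MDA (6 higher, 8 lower, beside 34.2% of all genes), 19 of 25 were called with TAA (3 higher, 16 lower, beside 49.7% of all genes), 23 of 24 were called with CCl4 (2 higher, 21 lower, beside 53.4% of all genes), 22 of 25 were called with GAL (1 higher, 21 lower, beside 52.5% of all genes) and 20 of 25 with ConA (3 higher, 17 lower, beside 68.0%). The 4 gavage compounds share their controls, CCl4 and GAL share theirs, and the 17 mice are common to all 7, so that counts over compounds are not independent. Ugt2a3 and Ugt1a6b were called lower with all 7 compounds against the route vehicle. Against the 17 vehicle mice Ugt2b1, Sult2a8, Sult5a1 and Sult1c2 were as well, Sult1c2 having met the filter in the vehicle mice alone each time. Of 24 members tested with all 7 compounds against the route vehicle, none went without a call. Members called higher with at least 1 compound numbered 8, and 6 were called in both directions. The share of all genes that meets such conditions over 7 compounds was not counted. In each route comparison 28.2% to 50.5% of all genes were called, so that these pooled counts alone do not set the members apart. The scaling bears on these counts. With library totals in place of TMM the median over all genes moved from 0.10 to 0.53 with CCl4, from 0.08 to 0.84 with GAL, from 0.03 to -0.56 with ConA, from -0.01 to -0.23 with ANIT and from 0.07 to 0.22 with APAP. No called member value changed sign, 19 of 117 were no longer called, and the split with MDA was 4 higher and 8 lower. The calls lost with GAL were Ugt2b1, Ugt3a2, Ugt1a6a, Ugt2b5, Ugt1a1, Ugt1a7c, Ugt1a10 and Ugt1a9, and with CCl4 Sult1c2, Ugt1a6a, Ugt2b36, Ugt1a10 and Sult2a7. The i.p. and i.v. saline controls hold 2 mice each. Without i.p. saline mouse 7 fewer members were called with CCl4 and GAL, and without i.v. saline mouse 8 fewer with ConA. The share of all genes called in these fits is not given, so that a loss particular to the members cannot be told from a general one. Several ConA values are therefore also given against all 17 vehicle mice.

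**Figure D1:**
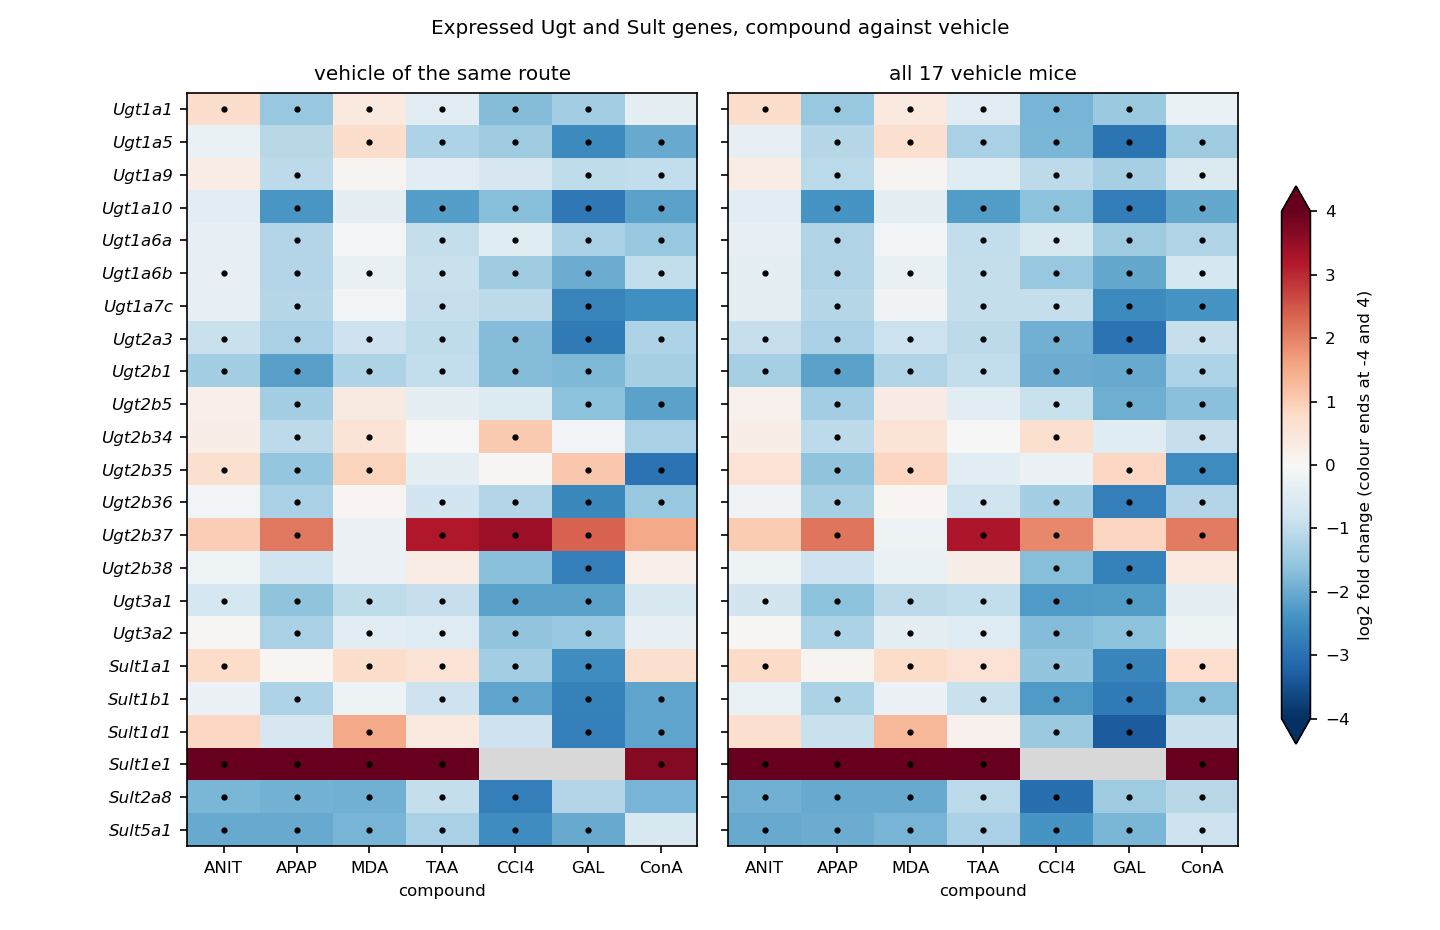
Log2 fold change of each of the 23 expressed members (rows) with each compound (columns), against the route vehicle on the left and against all 17 vehicle mice on the right; colour runs from -4 to 4, dots mark an edgeR adjusted p under 0.05 and grey cells were not tested. Ugt2a3 and Ugt1a6b are lower and called in every column of both panels, and Ugt2b37 and Ugt2b35 change colour between compounds. Sult1e1 is the strongest rise, but it met the filter in the treated mice alone, which favoured a rise. Ugt2b37 did so too with CCl4, GAL and ConA against the route vehicle.

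Cell type markers moved with some of these comparisons, and their part in the results for the members was not tested. Hepatocyte markers were called lower for 6 of 7 with CCl4 (median -1.36) and 7 of 7 with GAL (median -1.48), and their summed level was 21126 to 30156 and 25882 to 34227 CPM beside 52998 to 62886 CPM with i.p. saline. With APAP 2 of 7 were lower and 1 higher (median 0.02), while the median over the tested members was -1.29. With TAA and with MDA 3 of 7 were lower and 1 higher (medians -0.36 and 0.18), and with ANIT 1 of 7 was lower (median 0.04). Cholangiocyte markers were lower for 2 of 5 and higher for 1 with ANIT (median -0.76), summing to 19.7 to 34.9 CPM beside 23.1 to 103.4 CPM with gavage vehicle, and higher for 2 of 5 with APAP, TAA and ConA. With ConA 1 of 7 hepatocyte markers was lower (median 0.23), whereas the Kupffer cell markers were lower for 6 of 6, summing to 25.7 to 51.5 CPM beside 291 to 301 CPM with i.v. saline. Neutrophil markers were called higher for 5 of 5 with TAA, where they summed to 159 to 828 CPM beside 2.07 to 59.8 CPM with gavage vehicle, for 3 of 4 with APAP, for 3 of 4 with ConA, for 3 of 5 with CCl4 and for 4 of 4 with GAL. With MDA 2 of 4 neutrophil markers were higher and with ANIT 1 of 4. The controls mattered for some of these counts. Against all 17 vehicle mice 1 of 4 neutrophil markers was called with GAL (median 1.41 in place of 2.39), and hepatocyte markers with ConA were higher for 3 and lower for 3 of 7 (median 0.01). The neutrophil marker Mmp8 was at 0 in both saline groups. B cell markers were higher for 3 of 3 with TAA (median 2.37), summing to 3.29 to 11.1 CPM beside 0.863 to 4.27 CPM with gavage vehicle, and lower for 2 of 3 with ANIT and 2 of 2 with MDA. Monocyte markers were higher for 3 of 4 with GAL (median 2.53), summing to 61.8 to 118 CPM beside 20.4 to 25.1 CPM with i.p. saline, and for 2 of 4 with APAP, TAA and CCl4. Sinusoidal endothelial markers were lower for 3 of 5 with CCl4, at 51.4 to 77.5 CPM beside 87.9 to 108 CPM, and with TAA 2 were higher and 3 lower of 5. Stellate cell markers were lower for 3 of 5 with MDA (median -0.99), at 27.2 to 90.4 CPM beside 33.8 to 116 CPM. With ANIT 2 of 5 were lower, with APAP 2 were higher, and with TAA 2 were higher and 1 lower. Kupffer cell markers were higher for 1 and lower for 2 of 6 with ANIT, MDA and TAA, and with APAP 1 was higher and 1 lower.

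Among the Ugt1a genes the bilirubin enzyme Ugt1a1 rose with ANIT and MDA and fell with APAP, TAA, CCl4 and GAL. In the gavage vehicle mice its level was 208 (lowest), 253 (median) and 309 (highest) CPM. It was 366, 423, 380.3 and 470.0 CPM in the 4 ANIT mice, all of them above every vehicle mouse, a rise of 0.69 ± 0.10 (SE; edgeR adjusted p = 6.5e-05) on the log2 scale. With MDA it was 233 (lowest), 334 (median) and 437 (highest) CPM, which overlapped the vehicle range, for 0.39 ± 0.10 (SE; edgeR adjusted p = 0.0056). With APAP it was 118, 66.7, 76.2, 114, 70.7 and 69.1 CPM, all under the lowest vehicle mouse, for -1.52 ± 0.15 (SE; edgeR adjusted p = 6.85e-07). The TAA mice were at 281, 157, 162, 132 and 182 CPM, of which only mouse 1 lay within the vehicle range, and the difference was -0.43 ± 0.14 (SE; edgeR adjusted p = 0.0178). Without TAA mouse 3, 6 or 7 it was -0.38 to -0.34 (edgeR adjusted p = 0.0555 to 0.059).

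The i.p. saline mice held 269.6 and 205 CPM of Ugt1a1. The CCl4 mice held 58.7 (lowest), 71.8 (median) and 82.5 (highest) CPM and the GAL mice 115, 88.4, 67.4 and 106 CPM, below both controls without overlap. The differences were -1.73 ± 0.12 (SE; edgeR adjusted p = 1.62e-05) with CCl4 and -1.40 ± 0.23 (SE; edgeR adjusted p = 0.00841) with GAL, the latter -1.18 (edgeR adjusted p = 0.0617) without i.p. saline mouse 7 and -1.496 ± 0.12 (SE; edgeR adjusted p = 1.6e-09) against all vehicle mice. With ConA Ugt1a1 was 99.9 (lowest), 201 (median) and 255 (highest) CPM beside 246 and 277 CPM in the i.v. saline mice, and the difference of -0.39 ± 0.30 (SE; edgeR adjusted p = 0.338) was not called, nor was that against all vehicle mice, -0.27 ± 0.12 (SE; edgeR adjusted p = 0.053).

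Ugt1a6a and Ugt1a6b conjugate planar phenols and are close copies of each other. Ugt1a6b was called lower with every compound, at -0.29 with MDA and -0.34 with ANIT up to -1.41 with CCl4 and -1.97 with GAL on the log2 scale. In the vehicle mice it was 61.1 to 85.4 CPM, in the ANIT mice 60.5, 62.1, 48.8 and 59.3 and in the GAL mice 25.2, 17.8, 18.2 and 14.8 CPM. The ANIT range thus met the vehicle range at its lower end, and the GAL range lay far under the 80.4 and 61.7 CPM of the i.p. saline mice. The calls with the smallest differences were lost without single mice, with ANIT to -0.27 (edgeR adjusted p = 0.0827) without mouse 3, and with MDA to -0.26 to -0.24 (edgeR adjusted p = 0.0531 to 0.0598) without mouse 4 or 8. With ConA the difference was -0.98 ± 0.26 (SE; edgeR adjusted p = 0.016), -0.82 (edgeR adjusted p = 0.112) without i.v. saline mouse 8 and -0.71 ± 0.12 (SE; edgeR adjusted p = 7.15e-06) against all vehicle mice.

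Ugt1a6a fell with APAP (-1.16 ± 0.21), TAA (-0.95 ± 0.20) and ConA (-1.51 ± 0.27), with edgeR adjusted p = 0.000276, 0.000533 and 0.00206. It was also called lower with CCl4 (-0.49 ± 0.13) and GAL (-1.29 ± 0.28), but not without either i.p. saline mouse, where the values were -0.56 to -0.42 (edgeR adjusted p = 0.067 to 0.134) and -1.39 to -1.17 (edgeR adjusted p = 0.0808 to 0.103). With GAL it also missed the threshold without GAL mouse 4 or 8, at -1.31 to -1.20 (edgeR adjusted p = 0.0516 to 0.0519). With ANIT it was -0.32 ± 0.15 and with MDA -0.08 ± 0.16, neither called. MDA mouse 2 held 174 CPM of Ugt1a6a, and the next highest MDA mouse 84.6 CPM.

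Ugt1a9, another phenol-conjugating form, was called lower with APAP at -1.04 ± 0.22 (SE; edgeR adjusted p = 0.00127). It was also called with GAL at -1.01 ± 0.18, but was -0.73 (edgeR adjusted p = 0.0661) without i.p. saline mouse 7. With ConA it was called at -0.98 ± 0.24, but was -0.57 (edgeR adjusted p = 0.156) without i.v. saline mouse 8. Against all vehicle mice it was -1.34 with GAL, -0.57 with ConA and -1.03 with CCl4, all 3 called. Ugt1a10, the lowest expressed Ugt1a gene, fell with APAP by 2.33 and with TAA by 2.21 on the log2 scale, with edgeR adjusted p = 0.00271 and 0.00034. With APAP, TAA, GAL and ConA it met the filter in the vehicle mice alone, which favoured a fall. With ConA Ugt1a10 was called lower, but was -2.28 to -2.02 (edgeR adjusted p = 0.0505 to 0.0711) without ConA mouse 2, 3, 4 or 5. Without i.v. saline mouse 7 or 8 the ConA value was -2.30 or -1.96, neither called. It was called lower with CCl4 (-1.69 ± 0.47), but without i.p. saline mouse 7 the value was -0.10 (edgeR adjusted p = 0.945) and without mouse 8 -2.40 (edgeR adjusted p = 0.00367). With GAL it was -2.85 ± 0.71, called, but -1.19 (edgeR adjusted p = 0.382) without i.p. saline mouse 7, -3.58 (edgeR adjusted p = 0.0288) without mouse 8 and -2.84 to -2.63 (edgeR adjusted p = 0.062 to 0.0703) without GAL mouse 4, 7 or 8.

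Ugt1a5 was called higher with MDA and lower with TAA, and it differed among the 4 gavage compounds (edgeR adjusted p = 0.0124). It was 8.95 (lowest), 16.7 (median) and 31.95 (highest) CPM in the gavage vehicle mice and 5.95 (lowest), 33.7 (median) and 37.6 (highest) CPM with MDA, where 1 mouse lay under all vehicle mice and 4 of 7 lay above all of them. The difference was 0.69 ± 0.25 (SE; edgeR adjusted p = 0.0391) and missed the threshold without MDA mouse 2, 3, 4, 8 or 12, at 0.59 to 0.69 (edgeR adjusted p = 0.0586 to 0.102). With TAA it was 10.1, 7.25, 7.32, 5.27 and 5.75 CPM and lower, at -1.24 ± 0.24 (SE; edgeR adjusted p = 0.000204). With APAP it was 3.31, 1.78, 2.87, 3.34, 17.4 and 18.9 CPM, with 4 mice under every vehicle mouse and mice 8 and 11 inside the vehicle range, and the difference of -1.10 ± 0.42 (SE; edgeR adjusted p = 0.054) was not called. Against all 17 vehicle mice Ugt1a5 was called lower with APAP. With ConA Ugt1a5 fell from 25.3 and 26.1 to 3.81 (lowest), 6.23 (median) and 9.97 (highest) CPM, without overlap, at -2.001 ± 0.31 (SE; edgeR adjusted p = 0.00102). With GAL it was 4.98, 2.23, 1.58 and 1.26 CPM and -2.56 ± 0.52 (SE; edgeR adjusted p = 0.0155), but -2.67 to -2.42 (edgeR adjusted p = 0.0745 to 0.084) without i.p. saline mouse 7 or 8.

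Ugt1a7c, a phenol-conjugating form, was called lower with APAP at -1.13 ± 0.32 (SE; edgeR adjusted p = 0.0101) and with TAA at -0.91 ± 0.30 (SE; edgeR adjusted p = 0.0155). With GAL it was 5.69, 1.62, 0.935 and 0.895 CPM, highest in mouse 2, and -2.69 ± 0.80 (SE; edgeR adjusted p = 0.0474). Without GAL mouse 2 this was -3.65 (edgeR adjusted p = 0.00324), without mouse 4, 7 or 8 it was -2.56 to -2.42 (edgeR adjusted p = 0.0893 to 0.107), and without i.p. saline mouse 7 or 8 it was -3.21 to -1.85 (edgeR adjusted p = 0.102 to 0.269). Against all vehicle mice it was -2.56 ± 0.47 (SE; edgeR adjusted p = 8.77e-05) with GAL and -2.37 ± 0.46 (SE; edgeR adjusted p = 6.85e-05) with ConA, where the filter was met in the vehicle mice alone. Against i.v. saline the ConA difference of -2.46 ± 0.89 (SE; edgeR adjusted p = 0.0561) was not called. Of the other Ugt1a genes, Ugt1a2 was tested with CCl4 (-1.18 ± 0.87) and GAL (-0.26 ± 1.004) against the route vehicle and called with neither, and Ugt1a8 was too low to be tested.

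The Ugt2 genes, most of them side by side on chromosome 5 in the order Ugt2b34, Ugt2b1, Ugt2b35, Ugt2b36, Ugt2b5, Ugt2b37, Ugt2a3 and Ugt2b38 (assembly GRCm38.p6), moved in different directions. Ugt2a3 was called lower with all 7 compounds. It was 37.7 to 95.7 CPM in the gavage vehicle mice, 50.3, 39.2, 29.6 and 44.0 with ANIT, 19.2 to 40.9 with APAP, 23.8 to 52.7 with MDA and 63.3, 25.9, 31.6, 28.9 and 30.3 with TAA. These ranges overlapped at the lowest vehicle mice, and the log2 fold changes ran from -1.29 with APAP to -0.83 with MDA. With CCl4 Ugt2a3 was 14.4 to 27.6 CPM and with GAL 14.2, 9.12, 8.64 and 9.65 CPM, below the i.p. saline mice at 91.3 and 47.5 CPM, at -1.74 ± 0.27 (SE; edgeR adjusted p = 0.00111) and -2.81 ± 0.31 (SE; edgeR adjusted p = 0.00294). With ConA the difference was -1.22 ± 0.42 (SE; edgeR adjusted p = 0.0451) and -0.40 (edgeR adjusted p = 0.586) without i.v. saline mouse 8. It also missed the threshold without ConA mouse 2, 3, 4, 5 or 11, at -1.28 to -1.16 (edgeR adjusted p = 0.0543 to 0.071), and it was -0.93 ± 0.23 (SE; edgeR adjusted p = 0.000832) against all vehicle mice.

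Ugt2b1, which conjugates steroids and drugs, fell most with APAP, from 62.9 (lowest), 215 (median) and 335 (highest) CPM in the gavage vehicle mice to 6.11 (lowest), 51.0 (median) and 81.5 (highest) CPM. The ranges overlapped little, and the difference was -2.17 ± 0.49 (SE; edgeR adjusted p = 0.00228). With MDA it was -1.22 ± 0.28 (SE; edgeR adjusted p = 0.00198). With ANIT it was 133, 57.3, 52.5 and 55.8 CPM and -1.37 ± 0.39 (SE; edgeR adjusted p = 0.0142), but -1.26 to -1.24 (edgeR adjusted p = 0.0517 to 0.0647) without ANIT mouse 2, 3 or 4. With TAA it was 178, 60.7, 73.1, 69.4 and 90.2 CPM and -0.99 ± 0.35 (SE; edgeR adjusted p = 0.0232), but -0.96 to -0.86 (edgeR adjusted p = 0.0523 to 0.0683) without TAA mouse 3, 6, 7 or 8. Mouse 1 was the highest in both the ANIT and the TAA group. The i.p. saline mice held 236 and 90.4 CPM, and without mouse 7 the call was lost with CCl4, from -1.72 ± 0.31 to -0.90 (edgeR adjusted p = 0.066), and with GAL, from -1.79 ± 0.38 to -0.92 (edgeR adjusted p = 0.106), as it was with GAL without GAL mouse 8, -1.76 (edgeR adjusted p = 0.0544). Against all vehicle mice Ugt2b1 was lower, at -1.99 ± 0.29 (SE; edgeR adjusted p = 2.08e-06) with CCl4 and -2.01 ± 0.39 (SE; edgeR adjusted p = 0.000146) with GAL.

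Ugt2b35 rose with MDA and GAL and fell with APAP and ConA. It was 34.5 (lowest), 53.0 (median) and 82.0 (highest) CPM in the gavage vehicle mice and 55.6 (lowest), 103 (median) and 139.6 (highest) CPM with MDA, where 5 of 7 mice lay above every vehicle mouse, a rise of 0.89 ± 0.17 (SE; edgeR adjusted p = 0.000357). In the APAP mice it was 7.31, 32.5, 18.9, 27.8, 8.97 and 13.5 CPM, all under the lowest vehicle mouse, for -1.56 ± 0.27 (SE; edgeR adjusted p = 0.000231). In the ANIT mice it was 132, 56.4, 50.4 and 96.1 CPM and 0.63 ± 0.23 (SE; edgeR adjusted p = 0.0489), but 0.31 (edgeR adjusted p = 0.337) without ANIT mouse 1 and 0.56 (edgeR adjusted p = 0.135) without mouse 4. The ANIT difference was not called against all vehicle mice, at 0.59 ± 0.24 (SE; edgeR adjusted p = 0.0723).

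The GAL mice held 104, 100.3, 83.7 and 132 CPM of Ugt2b35, above the 57.7 and 37.3 CPM of both i.p. saline mice and above each gavage vehicle mouse. The rise was 1.07 ± 0.26 (SE; edgeR adjusted p = 0.026) against i.p. saline, where it was 0.95 to 1.10 (edgeR adjusted p = 0.0602 to 0.061) without GAL mouse 4 or 8 and 0.78 (edgeR adjusted p = 0.152) without i.p. saline mouse 8. Against all vehicle mice it was 0.84 ± 0.21 (SE; edgeR adjusted p = 0.00172). With CCl4 the level was 42.1 to 61.5 CPM, and the difference of 0.04 ± 0.19 (SE; edgeR adjusted p = 0.9) was not called. The ConA mice held 6.18 (lowest), 9.32 (median) and 13.3 (highest) CPM, under every one of the 17 vehicle mice, a difference of -2.97 ± 0.32 (SE; edgeR adjusted p = 0.000152) against i.v. saline, -2.20 (edgeR adjusted p = 0.00313) without i.v. saline mouse 8, and -2.51 ± 0.22 (SE; edgeR adjusted p = 2.55e-10) against all vehicle mice.

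Ugt2b37, a low member, was called higher with 4 compounds. With CCl4 and GAL it met the filter in the treated mice alone, which favoured a rise, and with APAP in the vehicle mice alone. Its level was 0.154 (lowest), 0.761 (median) and 1.78 (highest) CPM in the gavage vehicle mice and 7.15, 4.199, 5.56, 6.10 and 8.17 CPM with TAA, without overlap, a rise of 3.21 ± 0.39 (SE; edgeR adjusted p = 1.32e-06). With CCl4 it was 1.84 (lowest), 2.46 (median) and 4.57 (highest) CPM beside 0.298 and 0.151 CPM with i.p. saline, for 3.44 ± 0.49 (SE; edgeR adjusted p = 0.000617), which was 4.04 (edgeR adjusted p = 0.00604) without i.p. saline mouse 7. With GAL it was 1.22, 1.36, 1.55 and 1.06 CPM and 2.37 ± 0.48 (SE; edgeR adjusted p = 0.0155), with 3.02 (edgeR adjusted p = 0.0459) without i.p. saline mouse 7 and 2.03 (edgeR adjusted p = 0.081) without mouse 8. The GAL difference was not called against all vehicle mice, at 0.87 ± 0.51 (SE; edgeR adjusted p = 0.159), and several gavage vehicle mice held as much. The APAP mice split, with 4.85, 6.10, 3.12, 3.34, 0.0979 and 0.0694 CPM in mice 1, 2, 4, 6, 8 and 11, and their rise of 2.11 ± 0.63 (SE; edgeR adjusted p = 0.0145) was 1.77 (edgeR adjusted p = 0.0512) without APAP mouse 2. With ConA the difference was 1.51 ± 0.85 (SE; edgeR adjusted p = 0.193) against i.v. saline and 2.09 ± 0.44 (SE; edgeR adjusted p = 0.000148) against all vehicle mice.

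Ugt2b34 was called higher with CCl4, at 92.8 to 158 CPM beside 80.0 and 42.5 CPM, a difference of 1.06 ± 0.29 (SE; edgeR adjusted p = 0.0192). This was 0.69 (edgeR adjusted p = 0.195) without i.p. saline mouse 8 and 0.64 ± 0.20 (SE; edgeR adjusted p = 0.01) against all vehicle mice. It was called lower with APAP, -1.04 ± 0.32 (SE; edgeR adjusted p = 0.0172), and higher with MDA, 0.53 ± 0.19 (SE; edgeR adjusted p = 0.0352), the latter 0.45 to 0.52 (edgeR adjusted p = 0.0599 to 0.101) without MDA mouse 2, 3, 4 or 8. The MDA difference was not called against all vehicle mice, at 0.53 ± 0.21 (SE; edgeR adjusted p = 0.0563). With ConA it was -1.31 ± 0.49 (SE; edgeR adjusted p = 0.0646) against i.v. saline, not called, and -0.92 ± 0.26 (SE; edgeR adjusted p = 0.00335) against all vehicle mice. Ugt2b36, among the 4 highest members, fell with APAP (-1.29 ± 0.20), TAA (-0.76 ± 0.19) and GAL (-2.59 ± 0.33), with edgeR adjusted p = 8.7e-05, 0.0022 and 0.00387. In the GAL mice it was 74.1, 35.5, 35.7 and 46.4 CPM beside 325 and 224 CPM with i.p. saline, without overlap. Its falls with CCl4 (-1.18 ± 0.25) and ConA (-1.51 ± 0.35) were called, but not without i.p. saline mouse 7, -0.92 (edgeR adjusted p = 0.0825), or i.v. saline mouse 8, -0.85 (edgeR adjusted p = 0.173). Against all vehicle mice they were -1.36 and -1.17, both called.

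Ugt2b5, a close copy of Ugt2b38 in sequence, fell with APAP from 170.4 (lowest), 303 (median) and 475 (highest) CPM to 52.4 (lowest), 108 (median) and 202 (highest) CPM, at -1.36 ± 0.27 (SE; edgeR adjusted p = 0.000707). With GAL it was -1.65 ± 0.30 (SE; edgeR adjusted p = 0.0114), -1.20 (edgeR adjusted p = 0.0812) without i.p. saline mouse 7, and with ConA -2.14 ± 0.40 (SE; edgeR adjusted p = 0.00263), -1.27 (edgeR adjusted p = 0.0731) without i.v. saline mouse 8. With all 17 vehicle mice as controls these were -1.94 and -1.66, both called. Ugt2b38 was called against the route vehicle with GAL alone of the 7, at -2.73 ± 0.50 (SE; edgeR adjusted p = 0.0111) and -1.90 (edgeR adjusted p = 0.094) without i.p. saline mouse 7. With all 17 vehicle mice as controls it was called lower with GAL, at -2.71 ± 0.46 (SE; edgeR adjusted p = 3.42e-05), and with CCl4, at -1.71 ± 0.37 (SE; edgeR adjusted p = 0.000361). In that CCl4 comparison Ugt2b38 met the filter in the vehicle mice alone, which favoured a fall. Of the other compounds only CCl4 was tested directly against GAL, and the difference of CCl4 from GAL was 0.95 ± 0.51 (SE; edgeR adjusted p = 0.157).

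**Figure D2:**
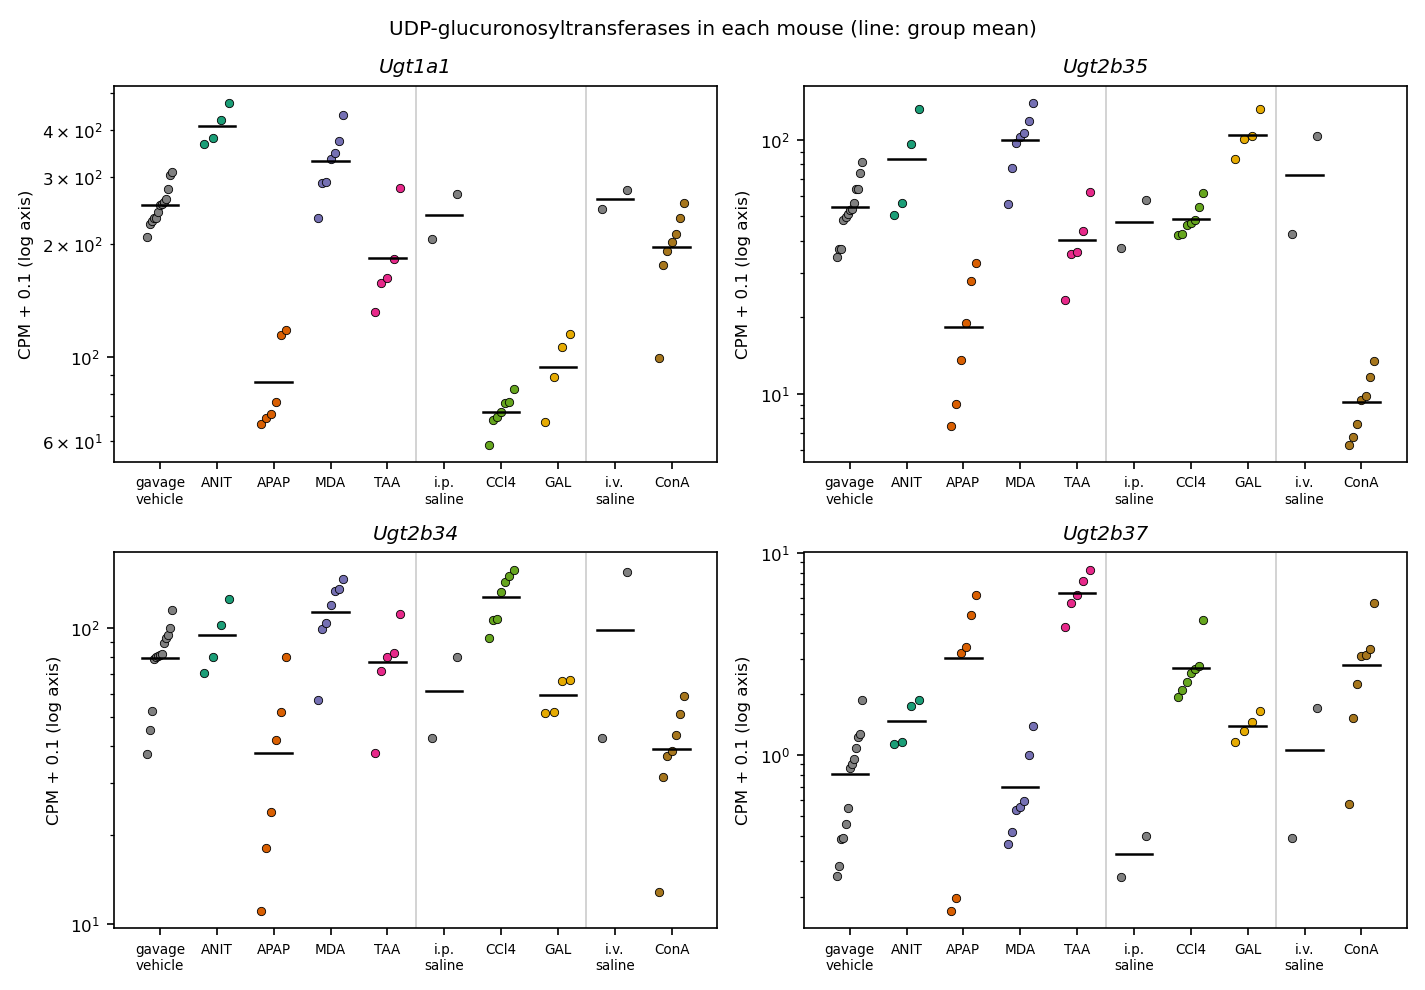
CPM plus 0.1 on a log axis in every mouse for Ugt1a1, Ugt2b35, Ugt2b34 and Ugt2b37, with the vehicle and compound groups along the x axis and a line at each group mean. Ugt1a1 lies above the vehicle mice with ANIT and below them with APAP, CCl4 and GAL, Ugt2b35 is lowest with ConA and high with GAL, and Ugt2b37 is highest with TAA while 2 APAP mice lie near 0.1 CPM.

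The Ugt3 enzymes use other sugars, Ugt3a1 UDP-N-acetylglucosamine and Ugt3a2 UDP-glucose and UDP-xylose. Ugt3a1 fell with 6 compounds, from -0.71 with ANIT to -2.13 with CCl4 and -2.15 with GAL. It was 26.4 (lowest), 36.0 (median) and 47.2 (highest) CPM in the gavage vehicle mice and 15.3, 11.2, 8.45, 11.6, 11.0 and 10.1 CPM with APAP, without overlap, for -1.62 ± 0.14 (SE; edgeR adjusted p = 3.35e-07). The GAL mice held 9.99, 8.09, 5.45 and 8.67 CPM beside 41.0 and 27.1 CPM, for -2.15 ± 0.28 (SE; edgeR adjusted p = 0.00392). Ugt3a2 fell with APAP (-1.29 ± 0.15), CCl4 (-1.57 ± 0.14), GAL (-1.52 ± 0.20), TAA (-0.52 ± 0.14) and MDA (-0.41 ± 0.12), with edgeR adjusted p from 4.7e-06 to 0.0122. With ConA neither was called, at -0.64 ± 0.37 for Ugt3a1 and -0.32 ± 0.32 for Ugt3a2.

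Sult1e1, the estrogen sulfotransferase, was near 0 in vehicle livers and was called higher with all 4 gavage compounds and with ConA. In these comparisons it passed the filter on low counts through the treated mice alone, so that a rise was the call the filter allowed. In the gavage vehicle mice it was 0 (lowest), 0.269 (median) and 1.21 (highest) CPM. It was 5.90, 17.2, 24.5, 16.6 and 17.8 CPM in the TAA mice, all above the highest vehicle mouse, a rise of 5.82 ± 0.48 (SE; edgeR adjusted p = 7.96e-09). In the MDA mice it was 0.991 (lowest), 3.92 (median) and 20.1 (highest) CPM, with 6 of 7 above every vehicle mouse, for 4.72 ± 0.57 (SE; edgeR adjusted p = 2.43e-06). The ANIT mice held 15.6, 1.14, 1.64 and 1.71 CPM, with mice 2, 3 and 4 close to the highest vehicle mouse, for 4.08 ± 0.68 (SE; edgeR adjusted p = 0.000272) and 2.33 (edgeR adjusted p = 0.0173) without ANIT mouse 1. The APAP mice held 16.2, 1.29, 0.453, 0.538, 42.6 and 29.0 CPM in mice 1, 2, 4, 6, 8 and 11, with mice 4 and 6 within the vehicle range and mice 1, 8 and 11 far above it, for 5.71 ± 0.79 (SE; edgeR adjusted p = 2.48e-05). Without APAP mouse 8 this was 5.06 (edgeR adjusted p = 0.000122).

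In the ConA mice Sult1e1 was 1.75 (lowest), 2.58 (median) and 13.4 (highest) CPM beside 0.162 and 0.592 CPM in the i.v. saline mice, without overlap, for 3.67 ± 1.05 (SE; edgeR adjusted p = 0.0219). Leaving out i.v. saline mouse 7 gave 3.04 (edgeR adjusted p = 0.146) and leaving out mouse 8 gave 4.83 (edgeR adjusted p = 0.0554), while against all vehicle mice the rise was 4.199 ± 0.53 (SE; edgeR adjusted p = 1.31e-07). After CCl4 and GAL the gene stayed too low for the filter, at 0 to 0.578 CPM and 0.0324 to 0.179 CPM, within the range of the gavage vehicle mice. No test was made for these 2 compounds. A difference among the 4 gavage compounds was not called (edgeR adjusted p = 0.476).

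Sult1a1, the main phenol sulfotransferase of liver, moved in opposite directions by compound. In the gavage vehicle mice it was 203 (lowest), 238 (median) and 345 (highest) CPM. It was 443, 416, 372 and 405 CPM with ANIT, all above every vehicle mouse, for 0.74 ± 0.11 (SE; edgeR adjusted p = 7.57e-05). With TAA it was 374, 320.2, 339, 369 and 342 CPM, of which mice 1 and 7 lay above every vehicle mouse, for 0.55 ± 0.10 (SE; edgeR adjusted p = 0.000186), and with MDA 273 (lowest), 376 (median) and 578 (highest) CPM for 0.70 ± 0.13 (SE; edgeR adjusted p = 0.000371). The i.p. saline mice held 242 and 190.3 CPM, the CCl4 mice 62.5 (lowest), 84.2 (median) and 100.3 (highest) CPM and the GAL mice 56.3, 39.2, 34.0 and 32.6 CPM. Neither range met the controls, and the differences were -1.38 ± 0.15 (SE; edgeR adjusted p = 0.000116) and -2.49 ± 0.25 (SE; edgeR adjusted p = 0.00239). With APAP the mean difference was 0.08 ± 0.28 (SE; edgeR adjusted p = 0.853), made up of mice 2, 4 and 6 at 104, 108 and 112 CPM, below every vehicle mouse, and mice 8 and 11 at 405 and 525 CPM, above every one, with mouse 1 at 257 CPM between.

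Sult1b1, which sulfates thyroid hormones and small phenols, fell with 5 compounds. The gavage vehicle mice held 5.88 (lowest), 11.5 (median) and 16.5 (highest) CPM and the APAP mice 3.02 (lowest), 4.48 (median) and 6.30 (highest) CPM, overlapping at the lowest vehicle mouse, for -1.24 ± 0.20 (SE; edgeR adjusted p = 0.000134). With TAA it was -0.84 ± 0.22 (SE; edgeR adjusted p = 0.00332). With CCl4 it was 1.58 to 4.00 CPM and with GAL 2.26, 1.55, 1.45 and 1.62 CPM, below the i.p. saline mice at 14.6 and 6.86 CPM, for -2.11 ± 0.33 (SE; edgeR adjusted p = 0.00116) and -2.71 ± 0.34 (SE; edgeR adjusted p = 0.00378). Without i.p. saline mouse 7 these were -1.502 (edgeR adjusted p = 0.0324) and -2.05 (edgeR adjusted p = 0.0307). With ConA it was -2.09 ± 0.46 (SE; edgeR adjusted p = 0.00626), -1.54 (edgeR adjusted p = 0.0946) without i.v. saline mouse 8 and -1.70 ± 0.26 (SE; edgeR adjusted p = 2.72e-06) against all vehicle mice.

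Sult1d1, a catecholamine sulfotransferase and the neighbour of Sult1b1 and Sult1e1 on chromosome 5, rose with MDA and fell with GAL. It was 5.08 (lowest), 19.5 (median) and 31.4 (highest) CPM in the gavage vehicle mice and 18.9 (lowest), 54.0 (median) and 105 (highest) CPM with MDA, with 6 of 7 mice above every vehicle mouse, for 1.52 ± 0.33 (SE; edgeR adjusted p = 0.00127). The GAL mice lay close together at 2.47, 2.26, 2.48 and 2.35 CPM, under the 21.95 and 8.14 CPM of the i.p. saline mice, for -2.72 ± 0.37 (SE; edgeR adjusted p = 0.00451), -1.81 without i.p. saline mouse 7 and -3.33 ± 0.66 (SE; edgeR adjusted p = 0.000206) against all vehicle mice. With CCl4 Sult1d1 was not called against i.p. saline and was called lower against all 17 vehicle mice. With ConA the call rested on 1 control. The i.v. saline mice held 7.81 and 93.0 CPM in mice 7 and 8, the ConA mice 5.87 to 16.8 CPM, and the difference was -2.10 ± 0.62 (SE; edgeR adjusted p = 0.024) with both controls, -2.97 (edgeR adjusted p = 0.00217) without mouse 7 and 0.57 (edgeR adjusted p = 0.472) without mouse 8. Set against the 17 vehicle mice, it was -0.91 ± 0.44 (SE; edgeR adjusted p = 0.0682) and not called.

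Sult2a8, of the family that sulfates hydroxysteroids and bile acids, fell with each gavage compound. The gavage vehicle mice held 68.4 (lowest), 165 (median) and 269 (highest) CPM. The ANIT mice held 50.8, 45.9, 34.6 and 43.4 CPM, all under the lowest vehicle mouse, for -1.83 ± 0.33 (SE; edgeR adjusted p = 0.000527). The MDA mice held 7.41 (lowest), 39.0 (median) and 57.5 (highest) CPM, also without overlap, for -1.91 ± 0.33 (SE; edgeR adjusted p = 0.000147). The APAP mice held 23.0, 88.7, 65.3, 61.1, 2.97 and 4.62 CPM, lowest in mice 8 and 11, for -1.90 ± 0.54 (SE; edgeR adjusted p = 0.0112). With TAA the mice spread over 146, 25.5, 85.1, 84.0 and 49.6 CPM and overlapped the vehicle mice, for -0.94 ± 0.36 (SE; edgeR adjusted p = 0.0337), with -0.99 to -0.71 (edgeR adjusted p = 0.0522 to 0.097) without TAA mouse 3, 6, 7 or 8.

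After CCl4 Sult2a8 was 8.69 (lowest), 19.8 (median) and 46.2 (highest) CPM beside 158 and 124 CPM in the i.p. saline mice, without overlap, for -2.72 ± 0.49 (SE; edgeR adjusted p = 0.00248). After GAL it was 23.8, 74.9, 93.9 and 68.7 CPM, -1.16 ± 0.49 (SE; edgeR adjusted p = 0.12) against i.p. saline, not called, and -1.42 ± 0.42 (SE; edgeR adjusted p = 0.00737) against all vehicle mice. The ConA mice held 10.2 (lowest), 79.7 (median) and 138 (highest) CPM and the i.v. saline mice 96.0 and 437 CPM, so that the groups overlapped, and the difference of -1.87 ± 0.73 (SE; edgeR adjusted p = 0.0712) was not called. Taking the 17 vehicle mice as controls, it was -1.12 ± 0.39 (SE; edgeR adjusted p = 0.0126).

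Sult5a1 fell with every compound but ConA against the route vehicle, from -1.30 with TAA to -2.49 with CCl4. It was 3.18 (lowest), 13.6 (median) and 24.3 (highest) CPM in the gavage vehicle mice, where 1 mouse lay under the rest, and 3.06, 7.11, 1.46 and 2.19 CPM with ANIT, for -2.02 ± 0.49 (SE; edgeR adjusted p = 0.00532), -2.64 (edgeR adjusted p = 0.00234) without ANIT mouse 2. The CCl4 mice held 1.5 to 3.83 CPM beside 17.6 and 13.8 CPM, without overlap, for -2.49 ± 0.28 (SE; edgeR adjusted p = 0.000173). With ConA it was -0.64 ± 0.23 (SE; edgeR adjusted p = 0.0503) against i.v. saline and -0.84 ± 0.27 (SE; edgeR adjusted p = 0.00703) against all vehicle mice. Sult1c2, just under the limit for expression, was 1.21 (lowest), 1.62 (median) and 3.26 (highest) CPM in the gavage vehicle mice. It was 0.285, 0.156, 0.0609 and 0.482 CPM with ANIT and 0.559, 0.208, 0.0897, 0.173 and 0.202 CPM with TAA, both without overlap, for -2.86 ± 0.42 (SE; edgeR adjusted p = 7.94e-05) and -2.90 ± 0.38 (SE; edgeR adjusted p = 3.05e-06). In these 2 comparisons, and with APAP, MDA and ConA, it met the filter in the vehicle mice alone, which favoured a fall. It also fell with APAP (-1.94 ± 0.47) and MDA (-2.11 ± 0.35), with edgeR adjusted p = 0.00399 and 8.56e-05. With ConA it was -2.74 ± 0.76 (SE; edgeR adjusted p = 0.0183), -2.13 (edgeR adjusted p = 0.196) without i.v. saline mouse 8 and -2.47 ± 0.37 (SE; edgeR adjusted p = 1.72e-06) against all vehicle mice. With CCl4 it was -1.29 ± 0.43 (SE; edgeR adjusted p = 0.0437), but the threshold was missed without either i.p. saline mouse, -1.62 to -0.83 (edgeR adjusted p = 0.076 to 0.372), and without CCl4 mouse 1, 5, 6, 10, 11 or 12, -1.35 to -1.18 (edgeR adjusted p = 0.0503 to 0.0701). Relative to all vehicle mice, it was -1.73 ± 0.25 (SE; edgeR adjusted p = 2.08e-06).

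Sult2a7, also just under the limit, met the filter in the vehicle mice alone with TAA and APAP, and with CCl4 against all vehicle mice, which favoured a fall. It was called lower with TAA at -1.58 ± 0.30 (SE; edgeR adjusted p = 0.000201) and with APAP at -1.59 ± 0.54 (SE; edgeR adjusted p = 0.0298), the latter -1.57 to -1.33 (edgeR adjusted p = 0.0521 to 0.0551) without APAP mouse 1, 4 or 8. With CCl4 it was -2.27 ± 0.62 (SE; edgeR adjusted p = 0.0198) against i.p. saline, -2.38 to -2.15 (edgeR adjusted p = 0.0808 to 0.117) without either control mouse and -2.67 ± 0.34 (SE; edgeR adjusted p = 2.78e-07) against all vehicle mice. The remaining Sult genes (Sult2a2, Sult2a5, Sult2b1 and Sult3a2 beside those named above) averaged at most 0.168 CPM.

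**Figure D3:**
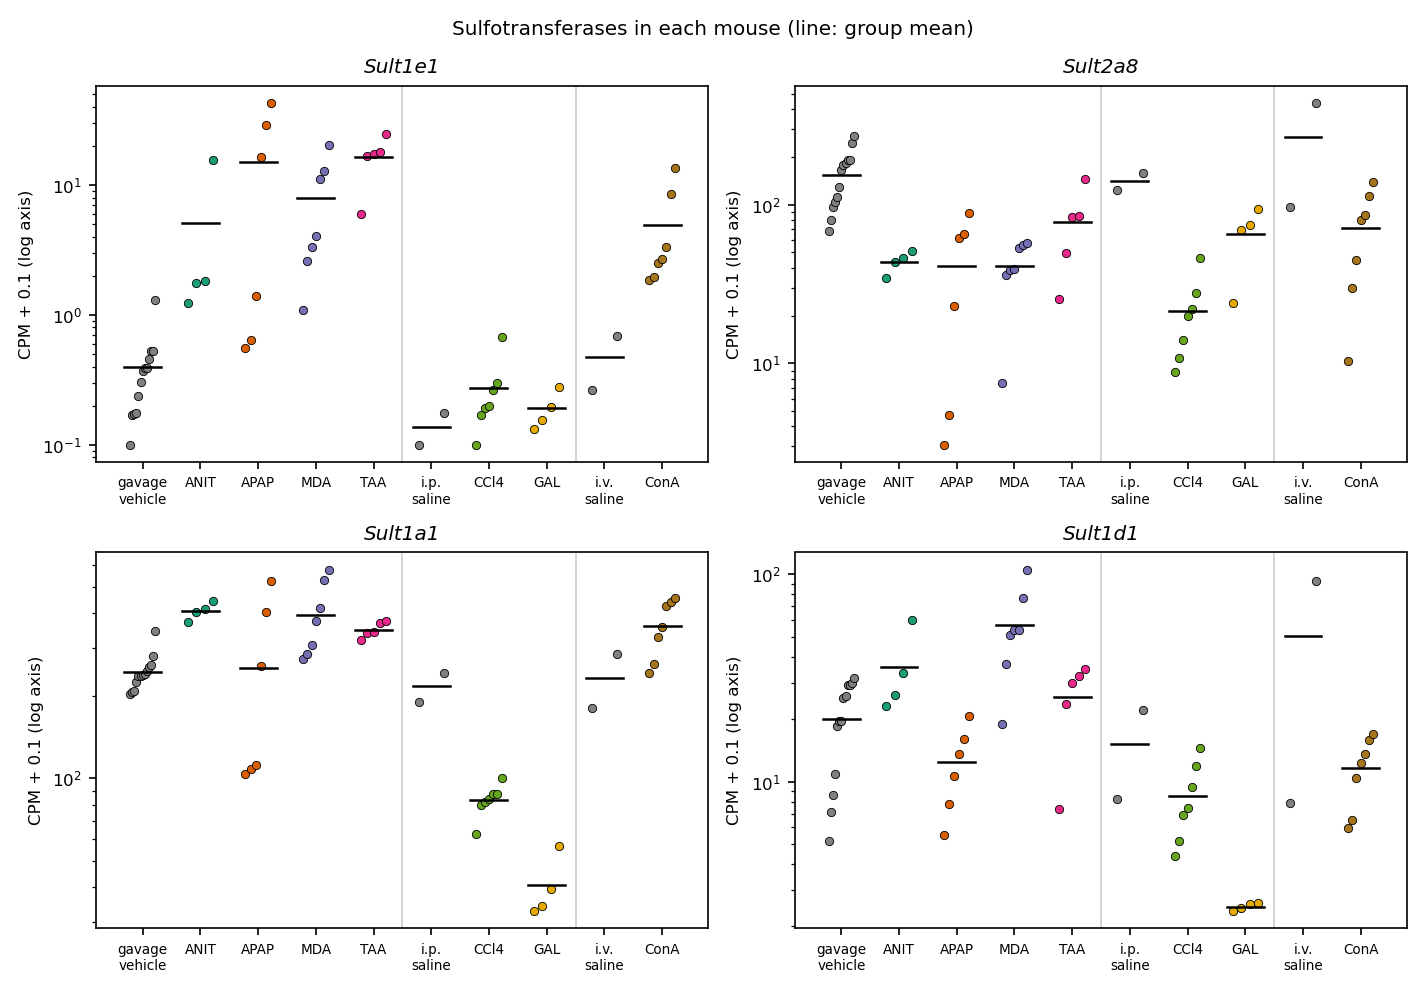
CPM plus 0.1 on a log axis in every mouse for Sult1e1, Sult2a8, Sult1a1 and Sult1d1, with the vehicle and compound groups along the x axis and a line at each group mean. Sult1e1 lies above the vehicle mice with TAA and ConA and near the axis floor with CCl4 and GAL, Sult1a1 is lowest with GAL, and the 6 APAP mice spread widely in Sult1e1, Sult2a8 and Sult1a1.

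The summed level of all 21 Ugt genes was 1698 ± 327 CPM (mean ± SD, n = 13) in the gavage vehicle mice, 1735 ± 231 with ANIT (n = 4) and 1749 ± 313 with MDA (n = 7). It was 1090.3 ± 345 with TAA (n = 5) and 638 ± 193 with APAP (n = 6). With i.p. saline it was 1515 ± 475 (n = 2), with CCl4 803 ± 128 (n = 7) and with GAL 598 ± 99.0 (n = 4), and with i.v. saline 2002 ± 903 (n = 2) and ConA 852 ± 212 (n = 7). The summed level of the 19 Sult genes was 448 ± 102 CPM in the gavage vehicle mice, 509 ± 58.4 with ANIT, 517 ± 139 with MDA, 482 ± 70.1 with TAA and 329 ± 166 with APAP. It was 401 ± 79.0 with i.p. saline, 119.5 ± 20.5 with CCl4, 115 ± 19.3 with GAL, 581 ± 384 with i.v. saline and 459 ± 131 with ConA. These sums are led by few genes and were not tested.

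**Figure D4:**
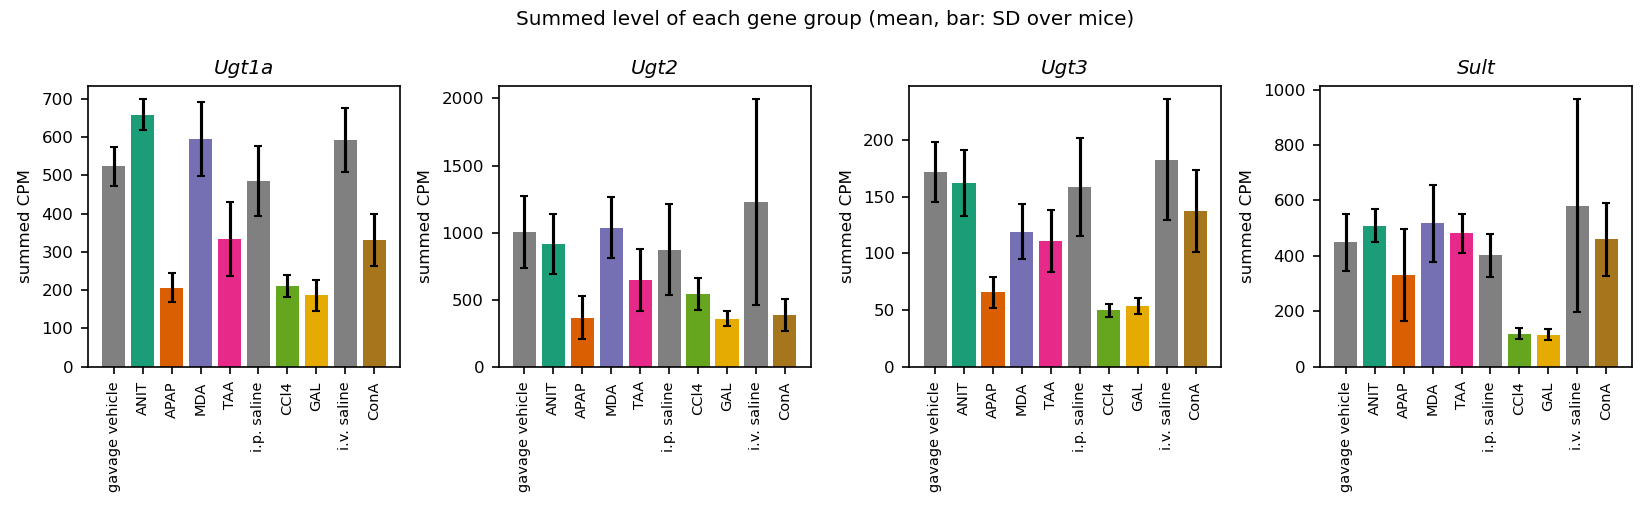
Summed CPM of the Ugt1a, Ugt2, Ugt3 and Sult genes in each group, as bars for the mean over mice with the SD as error bar. The Ugt2 sum is the largest in the vehicle groups and is low with APAP, GAL and ConA, and the Sult sum is lowest with CCl4 and GAL.

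Differences between compounds were tested on the treated mice alone, without the shared controls. Among ANIT, APAP, MDA and TAA, 15 of 27 tested members differed, beside 29.5% of all genes tested. The most distinct was Ugt1a1 (edgeR adjusted p = 1.94e-06), with mean levels of 409.9 ± 46.8 CPM (SD) with ANIT, 329 ± 66.2 with MDA, 183 ± 57.7 with TAA and 85.8 ± 23.7 with APAP. Ugt1a9 (7.66e-05), Ugt2b35 (0.000154), Ugt3a2 (0.000301), Ugt2b36 (0.000637), Ugt2b5 (0.0007), Sult1d1 (0.0025), Ugt1a6b (0.00289), Ugt2b37 (0.00455) and Sult1b1 (0.00714) followed by edgeR adjusted p. For Sult1a1 (0.371), Sult2a8 (0.51), Sult5a1 (0.608), Sult1c2 (0.597), Ugt2a3 (0.354) and Ugt2b1 (0.26) the edgeR adjusted p missed the threshold, which does not show that the compounds acted alike.

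Between the i.p. compounds, 15 of 24 tested members differed, 12 higher and 3 lower with CCl4 than with GAL, beside 42.5% of all genes tested. With library totals the split was 7 and 6. Higher with CCl4 were Sult1d1 by 1.78 ± 0.32 (SE; edgeR adjusted p = 0.00106), Ugt1a7c by 1.54 ± 0.55 (SE; edgeR adjusted p = 0.041) and Ugt2b36 by 1.31 ± 0.25 (SE; edgeR adjusted p = 0.00136). The 3 lower with CCl4 were Sult2a8 at -1.66 ± 0.45 (SE; edgeR adjusted p = 0.0113), Ugt2b35 at -1.13 ± 0.13 (SE; edgeR adjusted p = 4.49e-05) and Ugt1a1 at -0.42 ± 0.13 (SE; edgeR adjusted p = 0.0221). Sult1a1, higher by 1.01 ± 0.16 (SE; edgeR adjusted p = 0.0005), was 62.5 to 100.3 CPM with CCl4 and 32.6 to 56.3 CPM with GAL, without overlap.

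Between the vehicle groups no member was called, of 24 tested for i.p. saline against gavage and of 25 for i.v. saline, beside 0.0131% and 0.0263% of all genes. For i.v. saline 0.0197% of all genes were called higher and 0.00658% lower. At an unadjusted p under 0.05 edgeR counted 0 and 2 members, beside 570 of 15219 and 580 of 15199 genes. Leaving out i.v. saline mouse 7 raised this count for i.v. saline, with no member called. The share of all genes in that fit is not given, so that the rise cannot be read as particular to the members. Each saline group holds 2 mice, and the i.v. pair differed between themselves. Mouse 7 and mouse 8 held 96.0 and 437 CPM of Sult2a8, 7.81 and 93.0 CPM of Sult1d1, and 49.8 and 127 CPM of Ugt2a3. For Sult2a8 and Sult1d1, mouse 8 lay above every one of the 16 other vehicle mice. Mitochondrial transcripts made up 6.79% of the counts in mouse 7 and 25.4% in mouse 8, beside 14.6 to 39.3% in the ConA mice. They made up 5.11 to 9.24% with i.p. saline, 9.43 to 14.5% with CCl4 and 9.54 to 20.1% with GAL, both above the i.p. saline mice without overlap, beside 7.48 to 21.8% with gavage vehicle. The TMM scaling factors were 1.10 and 0.914 in this pair and 0.477 to 0.951 with ConA, and they were 0.959 to 1.08 with i.p. saline, 1.16 to 1.49 with CCl4 and 1.599 to 1.78 with GAL. The part of the mitochondrial share in the results was not tested. With library totals in place of TMM, 12 members were called with GAL in place of 20 and 21 with ConA in place of 13. Over all genes edgeR then called 6359 in place of 4416 with GAL and 4853 in place of 4827 with ConA. Of these, 844 in place of 2435 were lower with GAL and 3752 in place of 2446 with ConA.

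The enzymes depend on a supply of their co-substrates. The counts of this and the following lists are against the route vehicle unless stated, and fits of these genes without single mice are not given here. Of 7 genes that make, move or use UDP-glucuronic acid, those called were 3 higher and 0 lower of 7 with ANIT (28.2% of all genes, median 0.16), 2 higher and 2 lower of 7 with APAP (31.8% of all genes, median -0.24), 3 higher and 0 lower of 7 with MDA (33.8% of all genes, median 0.11), 2 higher and 1 lower of 7 with TAA (50.5% of all genes, median -0.01), 3 higher and 1 lower of 7 with CCl4 (33.5% of all genes, median 0.11), 2 higher and 2 lower of 7 with GAL (28.5% of all genes, median -0.34) and 1 higher and 3 lower of 7 with ConA (34.2% of all genes, median -0.91). In parentheses stand the share of all genes tested that edgeR called in that comparison and the median of the listed genes. With TAA the 42.9% of listed genes called lay under the share over all genes, and with the other compounds the shares, 42.9% or 57.1%, lay above it. Ugdh, which oxidises UDP-glucose to UDP-glucuronic acid, was higher with ANIT (0.81 ± 0.17), MDA (1.08 ± 0.13), TAA (0.68 ± 0.15), CCl4 (1.12 ± 0.26) and GAL (1.17 ± 0.27) and lower with APAP (-0.71 ± 0.16) and ConA (-1.73 ± 0.53), all called by edgeR. Pgm1, a phosphoglucomutase, was called lower with APAP (-0.45), TAA (-0.41), CCl4 (-0.82) and GAL (-1.79). Slc35b1, a nucleotide transporter of the endoplasmic reticulum, was called higher with ANIT, APAP, MDA, CCl4 and ConA, by 0.59 to 1.33, and lower with GAL, -1.07.

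On the sulfate side, 13 gene symbols were listed, of which Bpnt2 and Impad1 name the same gene, and 11 were tested. Those called were 1 higher and 5 lower of 11 with ANIT (28.2% of all genes, median -0.32), 1 higher and 4 lower of 11 with APAP (31.8% of all genes, median 0.13), 1 higher and 7 lower of 11 with MDA (33.8% of all genes, median -0.38), 1 higher and 4 lower of 11 with TAA (50.5% of all genes, median -0.15), 2 higher and 3 lower of 11 with CCl4 (33.5% of all genes, median 0.11), 1 higher and 5 lower of 11 with GAL (28.5% of all genes, median -0.56) and 0 higher and 3 lower of 11 with ConA (34.2% of all genes, median -0.08). The shares called with TAA and ConA, 45.5% and 27.3%, lay under those over all genes. With all 17 vehicle mice as controls the ConA count was 4 higher and 4 lower of 11 (72.7%, beside 68.0% of all genes), so that neither this order nor the split held, and the GAL count was 3 higher and 7 lower of 11 (beside 52.5%). Papss2, the liver form of the synthase that makes PAPS, fell with all 7 compounds, from -0.92 with MDA to -2.83 with ConA. In the gavage vehicle mice it was 49.3 (lowest), 65.6 (median) and 77.9 (highest) CPM and with TAA 11.8 to 28.6 CPM, for -1.83 ± 0.18 (SE; edgeR adjusted p = 9.7e-08). Slc26a1, which carries sulfate into the cell, also fell with all 7, from -0.77 with CCl4 to -2.96 with GAL. Of the 2 phosphatases that clear the spent co-substrate, Bpnt1 was called lower with APAP (-0.59), MDA (-0.30), GAL (-0.72) and ConA (-1.62), and Impad1, the Golgi form, higher with ANIT (0.73), MDA (1.03), TAA (0.87) and GAL (1.69).

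Of 10 genes for transcription factors that act on these families, the calls were 4 higher and 0 lower of 10 with ANIT (28.2% of all genes, median 0.30), 0 higher and 4 lower of 10 with APAP (31.8% of all genes, median -0.39), 3 higher and 1 lower of 10 with MDA (33.8% of all genes, median -0.14), 2 higher and 7 lower of 10 with TAA (50.5% of all genes, median -0.68), 0 higher and 6 lower of 10 with CCl4 (33.5% of all genes, median -0.80), 1 higher and 3 lower of 10 with GAL (28.5% of all genes, median -1.17) and 1 higher and 3 lower of 10 with ConA (34.2% of all genes, median -0.18). With ANIT, APAP, MDA, GAL and ConA 4 of 10 were called, beside 28.2% to 34.2% of all genes, and with TAA 9 of 10. With all 17 vehicle mice as controls 9 of 10 were called with GAL, 1 higher and 8 lower, beside 52.5% of all genes. The xenobiotic receptors Nr1i2 (PXR) and Nr1i3 (CAR) were called higher with ANIT, by 0.88 ± 0.16 (SE; edgeR adjusted p = 0.000547) and 0.75 ± 0.26 (SE; edgeR adjusted p = 0.0362), and lower with APAP, TAA, CCl4 and ConA, at -0.59 to -1.88 for Nr1i2 and -0.63 to -2.27 for Nr1i3. With MDA Nr1i2 was higher by 1.15 ± 0.12 (SE; edgeR adjusted p = 6.33e-07). The bile acid receptor Nr1h4 (FXR) was called lower with APAP (-0.76), TAA (-1.41), CCl4 (-0.995) and ConA (-1.89). Nfe2l2 (NRF2), the factor of the antioxidant response, was called higher with MDA (0.37), TAA (0.90), GAL (1.78) and ConA (0.90).

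Conjugates leave the cell through 4 listed exporters, with 2 higher and 0 lower of 4 with ANIT (28.2% of all genes, median 0.41), 1 higher and 2 lower of 4 with APAP (31.8% of all genes, median -0.35), 2 higher and 0 lower of 4 with MDA (33.8% of all genes, median 0.34), 0 higher and 2 lower of 4 with TAA (50.5% of all genes, median -0.33), 1 higher and 1 lower of 4 with CCl4 (33.5% of all genes, median -0.09), 1 higher and 1 lower of 4 with GAL (28.5% of all genes, median 0.02) and 0 higher and 2 lower of 4 with ConA (34.2% of all genes, median -0.37). With TAA 2 of 4 were called beside about the same share of all genes. With all 17 vehicle mice as controls 2 were higher and 2 lower of 4 with CCl4 and likewise with ConA, beside 53.4% and 68.0% of all genes. Abcc4, in the basolateral membrane, was 36.4 to 59.5 CPM with CCl4 beside 0.746 to 1.13 CPM with i.p. saline, higher by 5.67 ± 0.27 (SE; edgeR adjusted p = 3.33e-06). It rose with GAL by 3.82 ± 0.40 (SE; edgeR adjusted p = 0.00257) and with APAP, MDA and ANIT by 1.91, 1.59 and 1.55, called as well. Abcc2, the canalicular exporter of glucuronides, fell with ConA at -2.95 ± 0.32 (SE; edgeR adjusted p = 0.000136) and with APAP and TAA at -0.81 and -0.83. Abcc3 was called higher with ANIT (0.53) and MDA (0.54) and lower with CCl4 (-0.98), and Abcg2, which exports sulfates, lower with APAP, TAA, GAL and ConA, at -0.63 to -1.27. Of 11 other conjugation enzymes the calls were 2 higher and 3 lower of 11 with ANIT (28.2% of all genes, median -0.02), 0 higher and 7 lower of 11 with APAP (31.8% of all genes, median -0.78), 1 higher and 3 lower of 11 with MDA (33.8% of all genes, median -0.39), 0 higher and 9 lower of 11 with TAA (50.5% of all genes, median -1.02), 0 higher and 9 lower of 10 with CCl4 (33.5% of all genes, median -1.31), 0 higher and 8 lower of 10 with GAL (28.5% of all genes, median -2.63) and 1 higher and 5 lower of 10 with ConA (34.2% of all genes, median -1.05). The share called with MDA, 36.4%, was near that over all genes, while with CCl4 9 of 10 were called. With all 17 vehicle mice as controls the ConA count was 1 higher and 10 lower of 11, beside 68.0% of all genes. Inmt, an N-methyltransferase, fell with all 7 compounds, from -2.34 with APAP to -5.73 with GAL. Nat8, an N-acetyltransferase, was called lower with ANIT, APAP, TAA, CCl4 and GAL, at -1.09 to -3.72. Nnmt, which methylates nicotinamide, rose with ANIT (1.98) and ConA (1.58) and fell with CCl4 (-0.63) and GAL (-3.48). Tpmt, which methylates thiopurines, fell with TAA, CCl4, GAL and ConA, at -0.75 to -2.94.

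**Figure D5:**
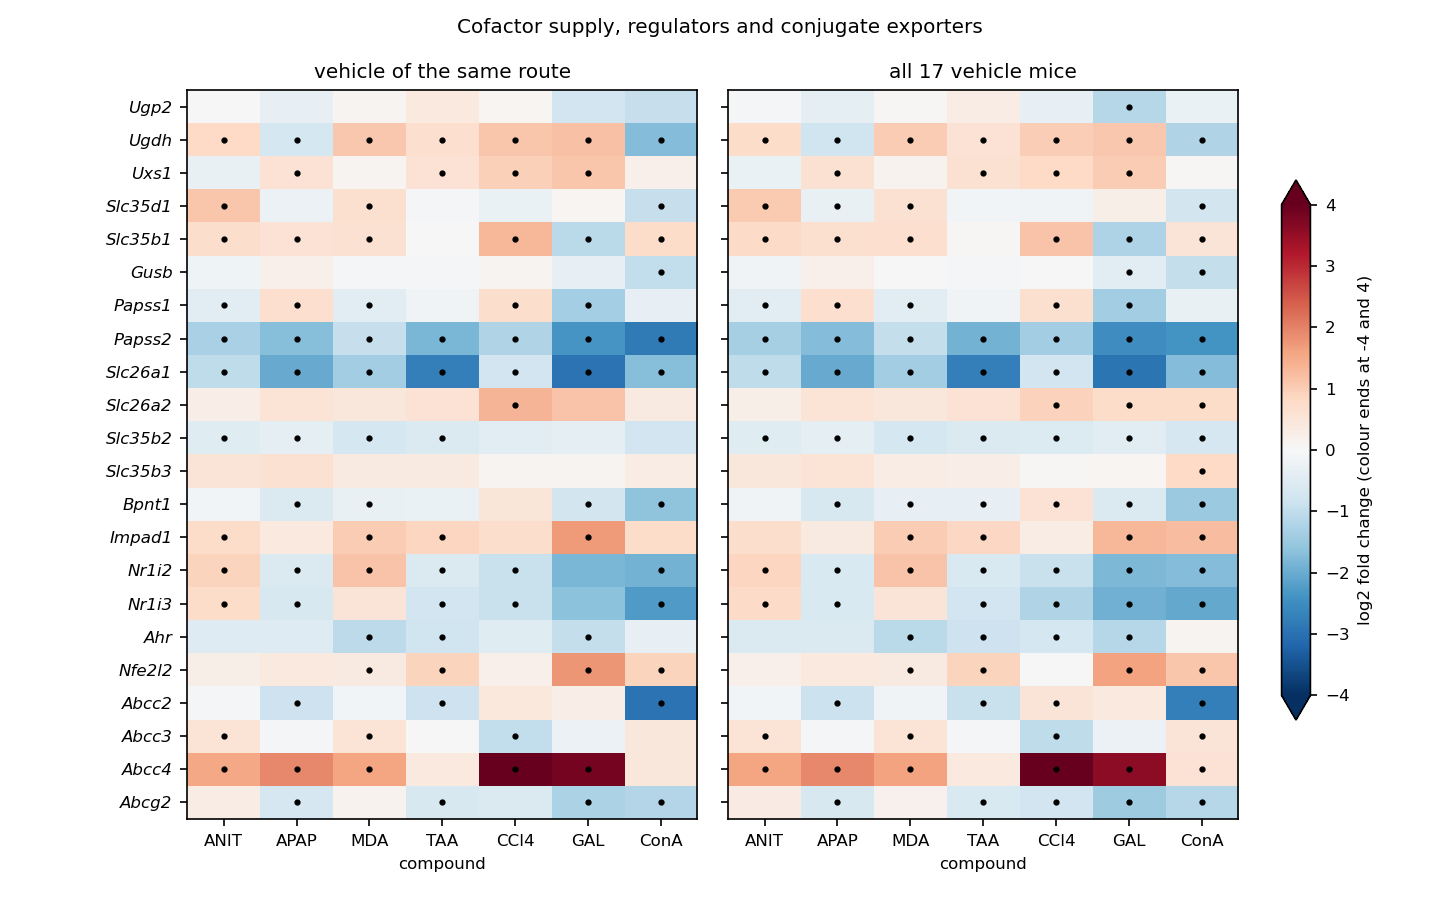
Log2 fold change of 22 listed genes for co-substrate supply, regulation and export (rows) with each compound (columns), against the route vehicle on the left and all 17 vehicle mice on the right; colour runs from -4 to 4 and dots mark an edgeR adjusted p under 0.05. Papss2 and Slc26a1 are lower and called in all 7 columns of both panels, and Abcc4 is highest with CCl4 and GAL.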

How the data were processed

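Bulk RNA-seq of 57 mouse livers was used as estimated counts per gene and liver in a single table, as the authors deposited it, with 54307 versioned Ensembl IDs. The submitters' processing notes name Salmon 1.6.0, R 4.1.3 and GRCm39 with no role or order. How reads were counted, the annotation and any use of strand are not given in the sources used here. Symbols came from GENCODE M21 names (51482 IDs matched, 2825 did not), chromosomes and promoters from RefSeq on GRCm38.p6, and shared 31-base words from GENCODE M21 transcripts. Groups and replicate numbers came from the labels.

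Estimated counts were rounded and tested with edgeR 4.0.16 (limma 3.58.1, data.table version 1.17.8, R 4.3.3) by the counts branch of the design: 2-group fits, TMM, filterByExpr, two-sided quasi-likelihood test, Benjamini-Hochberg adjustment over all genes tested, call at an adjusted p under 0.05. The SE is the size of the log2 fold change divided by the root of F. CPM uses TMM factors over all 57 livers. The 4 gavage compounds were also compared by an F test over their means. The procedure was tested on simulated counts.

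Named were, for each compound, the 3 called expressed members of largest rise and the 3 of largest fall, with a fixed list of 24 members whatever their values, and up to 4 called genes of largest change per pathway list. A gene of the UDP-glucuronic acid list is not reported here and is left out of that list's counts, for a reason that does not rest on its values. The remaining tested members were added after their values were seen. Members and lists were chosen with earlier results of these data known. Alternatives were library totals, no filter, a mean of at least 1 CPM, DESeq2 1.42.0, 1 fit over all livers, the replicate number as a block, its range as a covariate, all 17 vehicle mice, and leaving out each treated mouse and, for CCl4, GAL and ConA against the route vehicle, each saline mouse. No gavage vehicle mouse was left out. Fits within ranges of replicate numbers were chosen after seeing the data. The replicate numbers name different animals.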

Additional observations from a re-analysis of the deposited data

Results flagged for a closer look

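In groups of 4 to 10 mice, the expressed members were searched for a single mouse far from the others, by the gap to its nearest neighbour as a share of the range of the group. Of 161 pairs of gene and group, 20 had such a mouse. The cut-off picks about 1 in 20 groups of independent, normally distributed values. CPM of the same mice over many genes are not independent, so that no excess over chance is shown. TAA mouse 1 was the highest of its group in 5 of them, and its TMM scaling factor was 0.725 beside 0.947 to 1.15 in the other TAA mice. It held 10.3 CPM of Sult5a1 (next mouse 4.86), 63.3 of Ugt2a3 (31.6), 178 of Ugt2b1 (90.2), 129.9 of Ugt3a2 (89.6) and 60.95 of Ugt1a6b (37.2). Mice numbered 1 also had the lowest scaling factor of their group with ANIT (0.795), APAP (0.768), CCl4 (1.16) and gavage vehicle (0.645). With MDA mouse 1 (0.923) did not. ANIT mouse 1 was the highest with 15.6 CPM of Sult1e1 (next 1.71), 133 of Ugt2b1 (57.3) and 20.4 of Ugt1a5 (13.1), and ANIT mouse 3 the lowest with 2.62 CPM of Ugt2b38 (next 3.92).

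MDA mouse 2 was the highest with 174 CPM of Ugt1a6a (next 84.6), 80.0 of Ugt1a6b (62.0) and 7.18 of Ugt2b38 (3.46). Its scaling factor was 0.607 beside 0.901 to 1.17 in the other MDA mice, and mitochondrial transcripts made up 24.3% of its counts. ConA mouse 12 was the lowest with 53.1 CPM of Ugt3a2 (next 106), 33.5 of Ugt2b5 (89.01) and 55.0 of Ugt2b36 (118), with a scaling factor of 0.951 beside 0.477 to 0.751 in the other ConA mice. The part of scaling or mitochondrial share in these values was not tested. Among the CCl4 mice, mouse 10 held 0.578 CPM of Sult1e1 (next 0.197), mouse 12 held 72.7 of Ugt2b1 (50.7), mouse 1 held 4.57 of Ugt2b37 (2.66) and mouse 8 held 12.9 of Ugt3a1 (7.78), each the highest of its group. GAL mouse 2 was the highest with 5.69 CPM of Ugt1a7c (next 1.62).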

How the results depend on the processing

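The calls were refitted under each alternative, and of 117 called member values 19 missed the threshold with library totals, 9 with no filter, 2 of 113 with a mean of at least 1 CPM, 0 of 116 with DESeq2, 14 in 1 fit over all livers and 38 in at least 1 fit without a treated or saline mouse, beside Sult1d1 with ConA, which missed it and changed sign in 1 such fit. Counts of members called moved by over 1.5 times with library totals for GAL (12 in place of 20) and ConA (21 in place of 13). Over all genes the counts were 6359 in place of 4416 and 4853 in place of 4827. With the replicate block the count was 7 with ANIT and 3 with APAP, and 34 of 86 called values missed the threshold. Same-numbered mice correlated by -0.153 to 0.276 in their deviations, and no group with at least 3 pairs had all above 0.1, nor did every mouse correlate best with its own number. Within replicate numbers 1 to 4, chosen after seeing the data, the count was 9 with APAP and 3 with TAA, and within numbers above 4 it was 7 with ConA. Leaving out each treated mouse, and each saline mouse where these were the controls, gave 9 to 10 members with ANIT, 20 to 22 with APAP, 12 to 15 with MDA, 16 to 21 with TAA, 12 to 18 with CCl4, 11 to 22 with GAL and 3 to 16 with ConA against the route vehicle. The lowest counts with CCl4 and GAL came without i.p. saline mouse 7 and that with ConA without i.v. saline mouse 8, without which Sult1d1 also turned from -2.10 to 0.57 (edgeR adjusted p = 0.472), against -2.97 without mouse 7. Against all vehicle mice, where treated mice alone were left out, the ranges were 8 to 11, 21 to 22, 12 to 15 and 17 to 21 with the gavage compounds in the same order, 23 and 22 in each such fit with CCl4 and GAL, and 20 to 22 with ConA. The cause of these shifts was not tested, and the share of all genes called in the fits without single mice is not given here. A lone saline mouse is assumed to vary like the treated mice, and estimated counts give no depth per gene from which a limit of detection could be set.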
